A study of Rattus norvegicus with 42 samples.

Results

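Wild-type GH4C1 cells (WT) at 14 h after fresh medium were compared with the same cells at 10 h, the first interval of a series sampled every 4 h up to 34 h. The comparison was defined by the sample labels, with earlier results of these data known. It rests on 6 of the 42 libraries, 3 replicates labelled ZT10 and 3 labelled ZT14. GH4C1 cells derive from a rat pituitary tumour and are somatolactotroph, a type that makes growth hormone and prolactin. The cells were grown in Ham F10 with horse and fetal calf serum, had no other treatment, and were synchronised by a change to fresh medium. The 6 libraries of the same times from GH4C1 cells labelled Neat1 -/- (KO), made with CRISPR-Cas9, served for comparison. The labels do not say whether KO is a single clone, nor whether replicates were separate cultures, so p-values measure only the spread between these samples, which may be technical.

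Fresh serum switches on a brief wave of immediate early genes in cultured cells and sets their circadian clocks to a common phase. By 10 h the early wave is usually over, and slower changes in metabolism, growth and clock output follow. Neat1 is a long non-coding RNA that forms the scaffold of paraspeckles, nuclear bodies that hold RNA-binding proteins and some RNAs.

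Genes were identified by Ensembl numbers. The reference list of symbols held no Ensembl numbers, so 0 of the 13776 identifiers could be paired with a symbol. Neat1, hormone genes, markers of other cell types and promoter sequences were therefore not analysed. The labels of cell line and genotype were taken as given. At most 2 identifiers are printed in each direction.

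The 3 libraries at 10 h held 41.8 to 68.8 M counts (M, mega; median 56.7 M) and those at 14 h 39.1 to 48.0 M (median 42.2 M). Depth thus moved with time, and with all libraries thinned to 34.5 M counts 197 genes were called, against 215 at full depth. The KO libraries of both times held 46.7 to 55.1 M. Between replicates of one WT time, 118 to 203 genes differed by over 2-fold, and between a 10 h and a 14 h library 143 to 270 did, so these ranges overlapped. On the first principal component of the 6 WT libraries (32.1% of the variance) the times overlapped, with WT T14 replicate 1 apart at 25.6 and the others between -17.1 and 4.71. On the second (23.9%) the 10 h libraries lay at 4.98 to 16.02. Here WT T14 replicates 2 and 3 lay at -15.0 and -16.9, and WT T14 replicate 1 at 4.21, close to the 10 h libraries.

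A library outside both groups weighed on every count. WT T34 replicate 1 differed from its 2 partners by over 2-fold for 3046 and 3779 genes. It enters the tests through the estimate of spread, which all 42 libraries share. By edgeR, the coefficient of variation between libraries of a group, beyond counting noise, was 0.139 with it and 0.0923 without it. Counts are therefore given both ways.

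At 14 h, 84 genes were higher (0.610% of those tested) and 131 were lower (0.951%) than at 10 h. Together 215 of 13776 genes (1.56%) were called by the quasi-likelihood test of edgeR at an adjusted p under 0.05. Without WT T34 replicate 1 the test called 896 genes (6.50%), 432 higher and 464 lower, and all 215 were among them. The scaled change of the median gene was -0.00019 on the log2 scale. With a library of the compared groups left out, the count was 112 without WT T10 replicate 1, 106 without WT T10 replicate 2, 241 without WT T10 replicate 3, 135 without WT T14 replicate 1, 160 without WT T14 replicate 2 and 138 without WT T14 replicate 3.

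The changes were mostly modest. Of the called genes, 6 of those higher and 26 of those lower had moved by at least 1.5-fold. At 2-fold or more there was 1 higher and 8 lower, and without WT T34 replicate 1 there were 8 and 10. The median size of a called change was 0.37 on the log2 scale, against a median of 0.09 over all genes. The share of genes called rose with level, except in the highest band, which held only 61 genes. Among genes with a mean of 10 to 100 CPM (a gene's counts scaled to a common library total) 140 of 7051 were called, and among those of 100 to 1000 CPM 52 of 2090. Of 3764 genes at 1 to 10 CPM 22 were called, and of 61 genes over 1000 CPM 0.

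**Figure D1:**
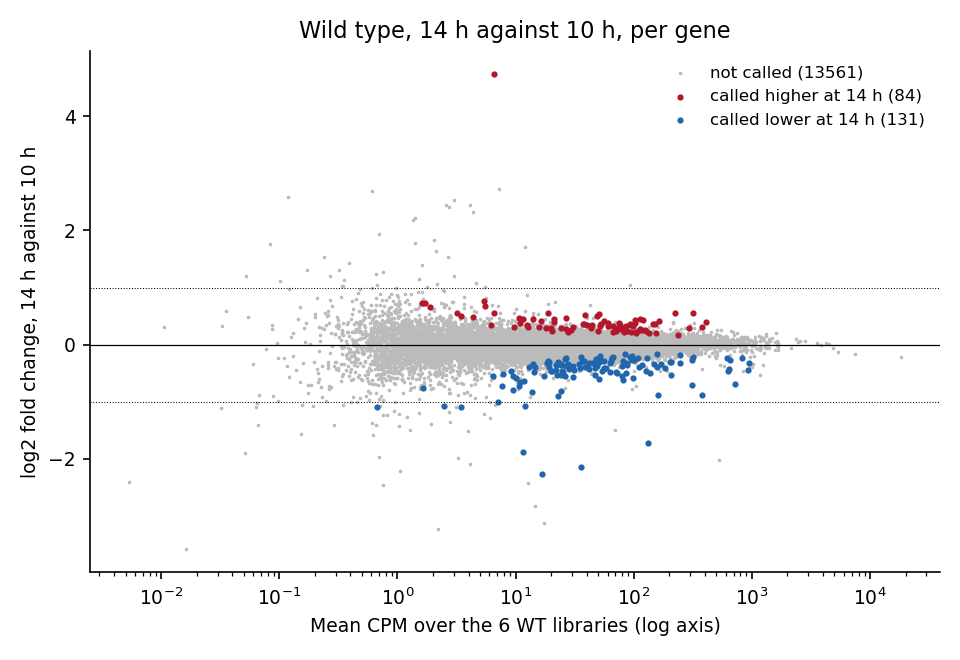
Each point is a gene, with its mean CPM over the 6 WT libraries on a log axis and its log2 fold change at 14 h against 10 h on the vertical axis; dotted lines mark 2-fold. The 131 genes called lower (blue) reach further from 0 than the 84 called higher (red), apart from 1 red point at 4.73.

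The 10 h and 14 h libraries did not overlap for 212 of the 215 called genes. They also did not overlap for 2823 of all 13776 genes (20.5%), so separation of 3 libraries from 3 is by itself a weak criterion here. Counts shifted little in bulk. The 84 higher genes held 0.600% to 0.626% of all counts in the 10 h libraries and 0.768% to 0.792% in the 14 h libraries. The 131 lower genes held 1.75% to 1.82% at 10 h and 1.32% to 1.37% at 14 h.

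The largest fall among the named genes was that of ENSRNOG00000038047. Its levels at 10 h were 28.4, 30.4 and 25.1 CPM in replicates 1 to 3, and at 14 h they were 5.42, 5.29 and 6.65 CPM. The lowest 10 h library stood well above the highest 14 h library, but naming required WT times that did not overlap. For each named gene this separation in WT was thus set by the choice. The log2 fold change was -2.27 (SE 0.21, adjusted p 1.85e-08 by edgeR, n = 3 against 3). The level went on down to 3.16 ± 0.37 CPM at 18 h and 2.37 ± 0.40 CPM at 22 h (SD, n = 3 each), and was 2.04 ± 0.19 CPM at 30 h. At 34 h it was 3.76 ± 1.74 CPM, with WT T34 replicate 1 the highest at 5.64 CPM.

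ENSRNOG00000025764 was next among the falls. It stood at 60.0, 64.4 and 50.1 CPM at 10 h and at 12.01, 14.7 and 12.9 CPM at 14 h, again with a wide gap between the times. The log2 fold change was -2.14 (SE 0.16, adjusted p 6.00e-11 by edgeR, n = 3 against 3). At 18 h it was at 9.57 ± 0.07 CPM and at 30 h at 6.77 ± 1.14 CPM (SD, n = 3 each). At 34 h it was at 11.1 ± 4.26 CPM, with WT T34 replicate 1 at 15.95 CPM, above the 14 h libraries.

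The rises were smaller. ENSRNOG00000005359 had 14.1, 16.4 and 15.1 CPM at 10 h and 22.7, 21.95 and 22.5 CPM at 14 h. The 14 h libraries lay close together and above all 10 h libraries. The log2 fold change was 0.56 (SE 0.11, adjusted p 0.0030 by edgeR, n = 3 against 3). Its level was 26.1 ± 0.91 CPM at 18 h, 29.9 ± 1.82 CPM at 30 h and 36.1 ± 2.01 CPM at 34 h (SD, n = 3 each), so the means rose at each sampled time.

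ENSRNOG00000053452 followed another course. It stood at 184, 185 and 178 CPM at 10 h and at 244, 281 and 279 CPM at 14 h, with WT T14 replicate 1 the lowest of the later time. The log2 fold change was 0.55 (SE 0.08, adjusted p 9.71e-05 by edgeR, n = 3 against 3). From 18 h to 30 h its means lay between 271 and 298 CPM, and its 14 h mean of 268 CPM was just under the lowest of these.

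**Figure D2:**
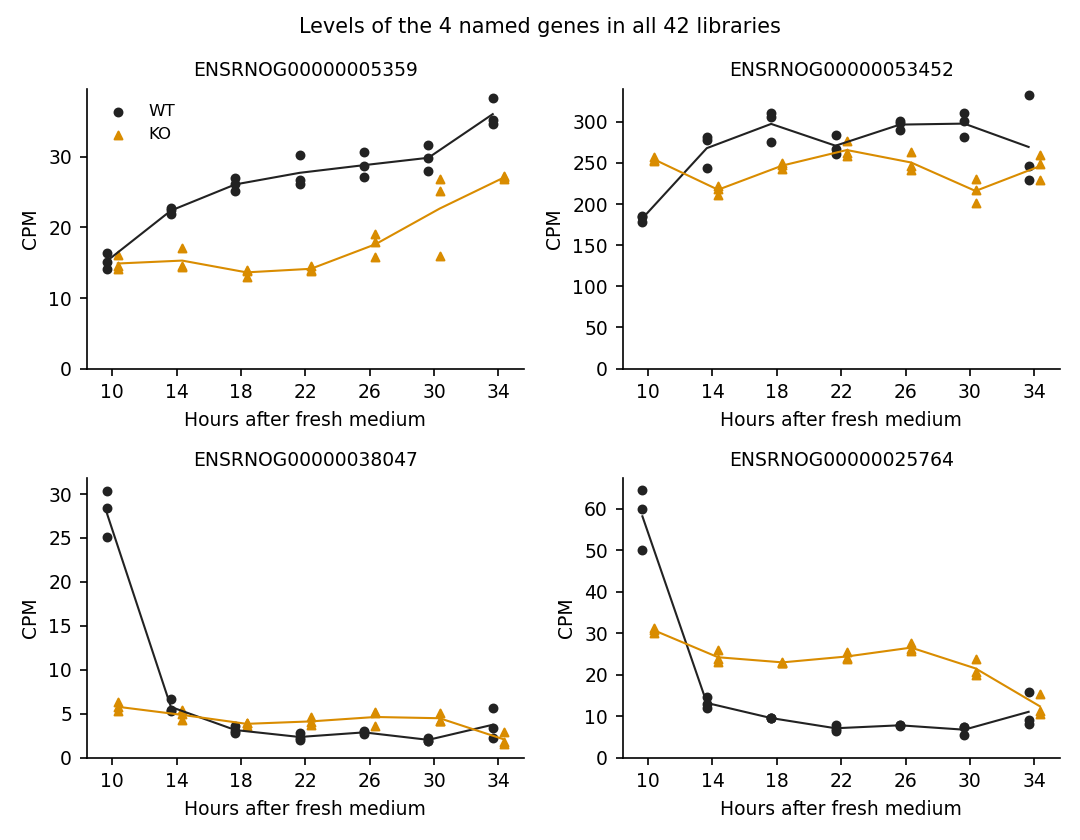
CPM of the 4 named genes against hours after fresh medium, with a point for each library (WT circles, KO triangles) and lines through the means of 3. In WT both falling genes drop between 10 h and 14 h, and their later means stay below those of 14 h. Their means at 34 h are above those at 30 h. In KO the interval from 10 h to 14 h holds no drop of that size.

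Of the 8 genes called at least 2-fold lower, 7 had a lower mean at 18 h than at 14 h. Their median level, relative to each gene's own mean over the libraries of 18 h to 30 h, was 2.32 ± 0.04 on the log2 scale at 10 h, 0.72 ± 0.11 at 14 h and 0.28 ± 0.03 at 18 h (SD over 3 libraries each). At 22 h it was -0.08 ± 0.14. By 34 h it was up again at 0.37 ± 0.28, with 0.69 in WT T34 replicate 1 and 0.23 and 0.18 in its partners. The most abundant of the 8, singled out after its values were seen and beyond the 2 falls named, had 204.4, 204.2 and 195 CPM at 10 h, 58.6, 59.96 and 63.5 CPM at 14 h and 25.7, 23.4 and 21.7 CPM at 18 h. Its 3 times did not overlap. The log2 fold change at 14 h was -1.73 (SE 0.11, adjusted p 7.48e-13 by edgeR). In KO it was already at 15.6 CPM on average at 10 h, near the 14.6 CPM of WT at 30 h, and its KO mean at 14 h was 12.6 CPM. Not all of the 8 were low in KO, and some had a higher mean at 10 h in KO than in WT. With 1 library of the 12 compared left out, 6 to 8 genes were called at least 2-fold lower.

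The 1 gene called at least 2-fold higher, too low in mean level to meet the naming rule, was high in some libraries and near 0.5 CPM in others. It had 0.378 to 0.671 CPM in the 10 h libraries and 10.9 to 16.1 CPM in the 14 h libraries. Its log2 fold change was 4.73 (SE 1.27) with an adjusted p of 0.0497 by edgeR. In 8 of the 12 fits that left out a library, no gene was called at least 2-fold higher. The same gene reached 11.3 CPM in WT T30 replicate 2, with its 2 partners at 0.962 and 0.483 CPM.

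The course over the whole series placed 14 h between 10 h and the later times. The genes were chosen by their 10 h and 14 h values, so those are a description. Later libraries set no fold change behind the choice, but they entered the shared estimate of spread that decided the calls. The 131 lower genes had a median of 0.57 ± 0.07 at 10 h, 0.22 ± 0.04 at 14 h and 0.08 ± 0.03 at 18 h, on the log2 scale relative to the mean of 18 h to 30 h (SD over 3 libraries each). The 84 higher genes had -0.50 ± 0.05, -0.15 ± 0.02 and -0.04 ± 0.03 at these times. From 22 h to 34 h the means of the library medians lay within 0.06 of 0 for both sets, and the libraries of 22 h to 30 h are part of the reference.

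Whether these genes went on in the same direction after 14 h was examined as the mean of 22 h, 26 h and 30 h against 18 h, a contrast chosen after the courses were seen. Its libraries set no 10 h or 14 h level but shared in the estimate of spread. Over all genes edgeR called 150 in it (1.09%), 56 higher and 94 lower, and 970 (7.06%) with only the libraries of these 4 times. Of the 131 genes lower at 14 h, 108 (82.4%) had a negative change and 17 were called lower, while 5 were called higher. Of the 84 genes higher at 14 h, 56 (66.7%) had a positive change, 5 were called higher and 1 lower. The medians were -0.10 for the lower set, 0.04 for the higher set and 0.00084 over all genes, of which 50.3% had a positive change. Without WT T34 replicate 1, 840 genes were called (6.10%), among them 86 lower and 24 higher of the 464 genes that were then lower at 14 h, and 53 higher and 19 lower of the 432 that were higher.

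**Figure D3:**
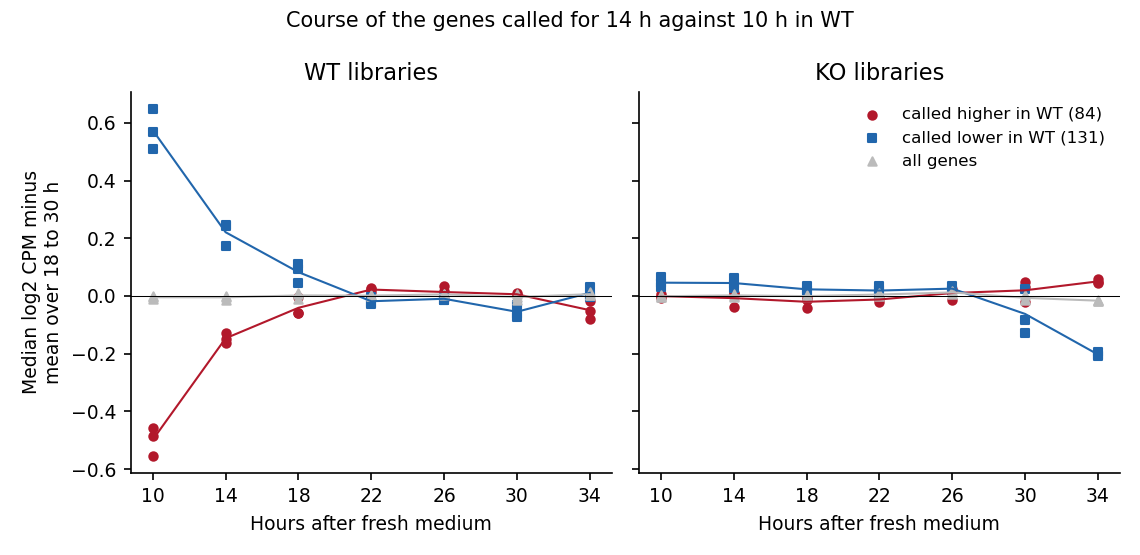
Median log2 CPM relative to each gene's mean over 18 h to 30 h in its own genotype, with a point for each library, for the 84 genes called higher and the 131 called lower at 14 h in WT and for all genes. In WT the sets start at -0.50 and 0.57 and approach 0 by 22 h, while in KO they stay within 0.07 of 0 up to 26 h.

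Compared with the other 4 h steps of WT, the first held more calls than the next 4. The test called 9 genes from 14 h to 18 h (0.0653%), 2 from 18 h to 22 h (0.0145%), 0 from 22 h to 26 h (0%) and 0 from 26 h to 30 h (0%). In the steps to 26 h and 30 h, 542 and 709 genes had an unadjusted p below 0.05 by edgeR, and DESeq2 called 7 and 1. From 30 h to 34 h edgeR called 4332 genes (31.4%), and WT T34 replicate 1 was part of that step. Without this library the 6 steps in order of time held 896 (6.50%), 179 (1.30%), 47 (0.341%), 10 (0.0726%), 5 (0.0363%) and 1518 (11.0%) calls. The step to 34 h thus held the most calls in both fits. With only the 6 libraries of each step, the order turned: the steps held 214 (1.56%), 8 (0.0583%), 1 (0.00729%), 138 (1.01%), 160 (1.17%) and 0 (0%) calls. These are counts, and whether the steps differed in size was not tested gene by gene. The first step was chosen with earlier results of these data known, so its place among the steps is a description.

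The same interval in KO held 5 called genes (0.0363%), 2 higher (0.0145%) and 3 lower (0.0218%). With only the 6 libraries of each genotype in the fit, 118 genes were called in KO (0.860%) and 214 in WT (1.56%), and with the 21 libraries of each, 34 and 114. The libraries of 10 h and 14 h did not overlap for 2437 genes in KO (17.7%). Of the 215 genes called in WT, 2 were also called in KO, in the same direction, a share of 0.930% of the calls in WT and of 40% of those in KO. Without WT T34 replicate 1, of the 896 genes called in WT, 7 were called in KO in the same direction and 8 in the opposite one. The WT and KO steps share no library. Over all genes, which are not independent replicates, their log2 fold changes had a correlation of -0.004. Most of these changes were small, with a median size of 0.09 in WT against a median standard error of 0.13. The correlation was 0.40 (0.17 by rank) over the 131 genes lower in WT and -0.14 (-0.19 by rank) over the 84 higher. The 131 genes lower in WT had a median log2 fold change of -0.39 in WT and -0.01 in KO, and the 84 higher genes had 0.34 and -0.0032. In KO 58 of the 131 and 41 of the 84 had a positive change. The 8 genes called at least 2-fold lower in WT had a median of -1.41 in WT and -0.27 in KO. Of these, 1 had a positive change in KO, and 0 were called there. Without WT T34 replicate 1, 59 genes were called in KO (0.428%).

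A call in WT and none in KO does not show a difference, so WT step minus KO step was tested in the same fit. It was called for 66 genes (0.479%), 26 with a positive and 40 with a negative difference. Of these, 56 had been called in WT and not in KO, which is 26.05% of the WT calls. For the other 159 WT calls a difference between genotypes was not established, and the median standard error of the difference was 0.18 on the log2 scale. All 20 of the WT rises in this group had the higher step in WT, and all 36 of the falls the lower step, as their choice favours. Another 3 had been called only in KO and 7 in neither genotype. The 10 most abundant genes took 6.04% to 7.05% of counts in the 6 WT libraries and 23.8% to 26.1% in the 6 KO libraries, and the part of this gap in the difference was not tested. Leaving out WT T34 replicate 1 raised the calls for the difference to 388 (2.82%), and a fit of only the 12 libraries to 302 (2.19%). With a library of the 12 compared left out it ranged from 28 to 89 genes, and it fell to 32 without WT T10 replicate 1, 28 without WT T10 replicate 2, 39 without WT T14 replicate 1, 38 without WT T14 replicate 3, 40 without KO T10 replicate 2, 34 without KO T10 replicate 3 and 35 without KO T14 replicate 3.

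**Figure D4:**
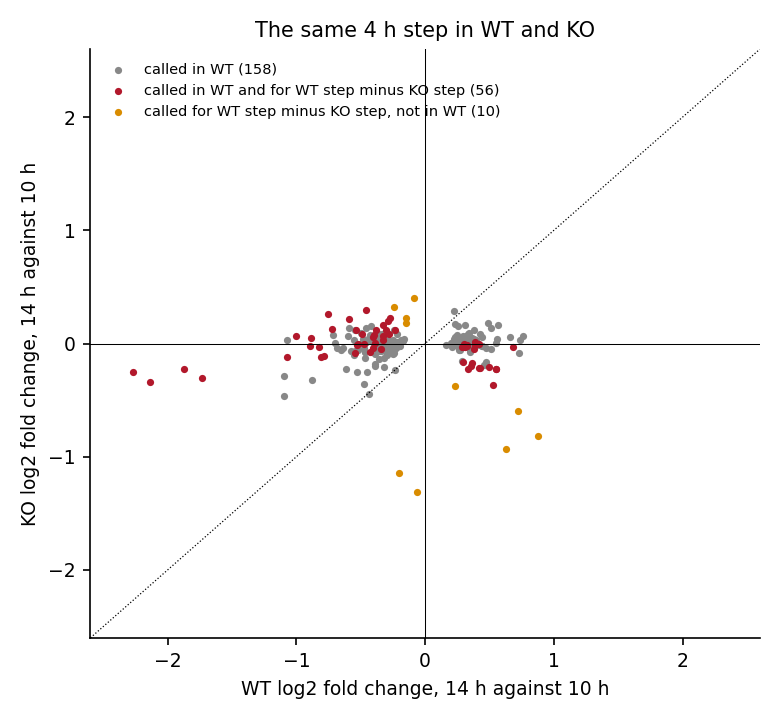
Log2 fold change at 14 h against 10 h in WT (horizontal) and KO (vertical) for genes called in WT or for WT step minus KO step; the dotted line marks equal steps, and 1 gene with a WT value of 4.73 lies outside the axes. The called genes spread along the WT axis, which their choice by calls in WT or for the difference favours. The 56 in red were called in WT and for the difference.

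Of the 4 named genes, 3 passed the test of the difference. For ENSRNOG00000038047 the KO levels were 5.73, 5.34 and 6.34 CPM at 10 h and 5.39, 5.02 and 4.25 CPM at 14 h. In KO at 10 h it was thus near the level that WT reached at 14 h. Its KO log2 fold change was -0.25 (SE 0.21), and WT step minus KO step was -2.02 (SE 0.29, adjusted p 1.99e-04 by edgeR). ENSRNOG00000025764 had 30.8, 30.1 and 31.3 CPM at 10 h in KO and 23.7, 25.9 and 23.0 CPM at 14 h. These KO groups did not overlap either, but the KO change of -0.34 (SE 0.15) was not called, with an adjusted p of 0.99999 by edgeR. With only the 6 KO libraries of these times it was called, with an adjusted p of 0.00936. The difference was -1.79 (SE 0.22, adjusted p 7.95e-06 by edgeR).

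ENSRNOG00000053452 had 257, 254 and 253 CPM at 10 h in KO and 223, 211 and 218 CPM at 14 h, so that its KO libraries were lower at 14 h while its WT libraries were higher. The KO change of -0.23 (SE 0.08) had an adjusted p of 0.785 by edgeR and was not called. With only the 6 KO libraries of these times it was called lower, opposite to WT, with an adjusted p of 0.00662. The difference was 0.78 (SE 0.12, adjusted p 3.02e-04 by edgeR). ENSRNOG00000005359 had 14.1, 16.1 and 14.5 CPM at 10 h in KO and 14.5, 17.1 and 14.3 CPM at 14 h, with overlapping times. Its difference of 0.52 (SE 0.16) had an adjusted p of 0.177 by edgeR and did not pass. With only the 12 libraries compared it passed, with an adjusted p of 0.0375.

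In KO the medians of the 131 and the 84 genes moved little up to 26 h, and later contrasts in KO were not tested. The 131 genes lower at 14 h in WT had a KO median of 0.05 ± 0.02 at 10 h, 0.04 ± 0.02 at 14 h and 0.03 ± 0.01 at 26 h on the log2 scale relative to the KO mean of 18 h to 30 h (SD over 3 libraries each). At 30 h it was -0.06 ± 0.08, and at 34 h -0.20 ± 0.01, against -0.02 ± 0.0012 for all genes. The 84 higher genes stood at 0.05 ± 0.01 at 34 h. The 8 genes lower in WT by at least 2-fold moved more. Their KO medians were 0.36 ± 0.06 at 10 h, 0.06 ± 0.02 at 14 h and -0.94 ± 0.30 at 34 h.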

How the data were processed

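RNA sequencing counts of 42 libraries were used, 3 for each of 14 groups of genotype and time. The authors deposited a table of raw counts per gene for each genotype, made with featureCounts per the submitters' processing notes. The aligner, genome build, annotation, strand setting and filter are not given in the sources used here, so reads of overlapping genes or near-identical copies may be misassigned.

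All libraries were fitted with a mean for each group in R 4.3.3 with edgeR 4.0.16 (TMM scaling, quasi-likelihood F test, 28 residual degrees of freedom). The edgeR filter removed 0 genes. Calls required a Benjamini-Hochberg adjusted p below 0.05 with all 13776 genes as the family. Standard errors come from the fold change and its F value. For medians and correlations of libraries, log2 CPM had a prior count of 1. The script was tested on simulated data.

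The groups came from the labels. The comparison, tests, alternatives and naming rule were set with earlier results of these data known. For naming, a called gene needed 10 CPM or more on average over the 6 libraries and no overlap between times, which 189 genes met; the 2 highest and the 2 lowest by log2 fold change were named. DESeq2 1.42.0, other scalings, filters and sets of libraries were alternatives. Gene lists set by symbol could not be used.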

Additional observations from a re-analysis of the deposited data

Results flagged for a closer look

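The change from 10 h to 14 h differed between WT and KO by a direct test, WT step minus KO step, for 66 genes by edgeR at an adjusted p under 0.05. Among the named genes, this difference was -2.02 on the log2 scale for ENSRNOG00000038047, -1.79 for ENSRNOG00000025764 and 0.78 for ENSRNOG00000053452. The part that preparation of the WT and KO library sets had in these differences was not tested.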

How the results depend on the processing

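Of 567 alternative values for 25 results, 485 kept direction and call, lay within 1.5 times of a count or, for the share of calls that were higher, within its exact 95% binomial interval of 32.5% to 45.9%, with genes taken as independent. Some alternatives could hardly differ, so these totals overstate how far the results were tried. The edgeR filter removed 0 genes, so the fit without a filter repeated the main values, which count among the 485. Leaving out a KO library left WT fold changes almost unchanged, and leaving out a WT library did so for KO. Unless stated, the cause was not tested. The 4 named WT changes were still called in all but 2 of 91 alternatives, which are both rises with a 1.5-fold minimum. The KO change of ENSRNOG00000005359 ranged from -0.047 without KO T14 replicate 2, a reversal, to 0.099 without KO T10 replicate 2.

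Leaving out a library (each of 10 h and 14 h, and WT T34 replicate 1) gave 106 to 896 calls in the first WT step (higher 42 to 432, lower 64 to 464, at least 2-fold 6 to 18, share higher 38.3% to 48.2%), 3 to 59 in KO and 28 to 388 for the difference. The next WT steps had 5 to 179, 2 to 47, 0 to 10, 0 to 5 and 1518 to 4339, and later times against 18 h, a contrast added after the data were seen, 139 to 840.

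DESeq2 called 367 genes in the first WT step (168 higher, 199 lower, 16 at least 2-fold), 32 in KO, 138 for the difference, 59, 7, 7 and 1 in the next 4 WT steps and 272 for later times. A 1.5-fold minimum, a stricter test by construction, left 4 in the first WT step (0 higher, 4 lower, 4 at least 2-fold, share higher 0%), 1 in KO, 3 for the difference, 1, 0 and 1 in the steps to 18 h, 22 h and 34 h and 1 for later times. With only the compared groups, 214 were called in the first WT step (119 of the 215), 118 in KO, 302 for the difference, 1, 138, 160 and 0 in the steps to 22 h, 26 h, 30 h and 34 h and 970 for later times. With only the 21 libraries of a genotype, 114 were called in the first WT step (41 higher, 73 lower), 34 in KO, 4, 1 and 1069 in the steps to 18 h, 22 h and 34 h and 53 for later times. Among genes of at least 10 CPM, 8 were called in KO, 1 in the step to 22 h and 3 at least 2-fold. Library totals gave 1 in the step to 22 h.

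Deviations of same-numbered replicates at 10 h and 14 h correlated at -0.13, 0.11 and -0.13 in WT and 0.0080, -0.0093 and 0.0025 in KO, so the numbers were not taken as pairs. With the replicate block, 208 genes were called in the first WT step, 4 in KO and 68 for the difference.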

Other observations

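The gene that was called at least 2-fold higher at 14 h in WT was also high in single KO libraries. It had 11.3 CPM in KO T18 replicate 2 and 11.1 CPM in KO T34 replicate 1, while the other libraries of those groups were between 0.489 and 0.745 CPM. At 10 h and 14 h in KO it stayed between 0.746 and 0.992 CPM. WT at 14 h and KO at 30 h were the groups in which all 3 libraries were above 5 CPM.

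A large fold change did not go with a call in most cases. Of the 93 genes with a fitted change of at least 2-fold between 10 h and 14 h in WT, 9 were called. Of 810 genes with a mean under 1 CPM, 1 was called.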
